A study of Mus musculus with 12 samples.

Results

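The genes described here encode the enzymes, transporters and regulators that carry glucose through glycolysis, pass pyruvate into the mitochondrion and run the citrate cycle, together with 3 genes of oxygen sensing. They were chosen by name from a list of 48 genes, of which 47 had a row among the 14143 genes of the deposited expression table, and all 47 passed the filter on low values (at least 1 FPKM in at least 3 of the 12 libraries). Pgam1, phosphoglycerate mutase, was not analysed here. RNA had been measured in hematopoietic stem cells (HSCs), the self-renewing cells of the bone marrow from which all blood lineages arise. All mice were female C57BL/6J without a genetic change named in the labels. Old mice were 18 months old and came from the colony of the National Institute on Aging. Young mice were 8 to 10 weeks old by the sample labels (8 to 12 weeks by the protocol) and came from a supplier or from the university's own colony, so age and source cannot be told apart. Marrow cells without lineage markers that carried Sca-1 and c-kit but not CD48 or CD135 were sorted by the surface protein CD150 into a low fraction, called lymphoid-biased (Ly-HSC), and a high fraction, called myeloid-biased (My-HSC). Each of the 4 groups, young Ly, old Ly, young My and old My, held 3 libraries from separate groups of mice. The comparisons asked how these genes differed with age in each subset, and between the subsets at each age.

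Glycolysis splits glucose into pyruvate in the cytosol. Pyruvate is then either reduced to lactate by lactate dehydrogenase or imported into the mitochondrion, where pyruvate dehydrogenase turns it into acetyl-CoA for the citrate cycle. Pyruvate dehydrogenase kinases switch that enzyme off by phosphorylation. Quiescent HSCs are known for their reliance on glycolysis, and the hypoxia-inducible factor HIF-1, whose alpha subunit is marked for destruction by prolyl hydroxylase and the von Hippel-Lindau protein when oxygen is present, is a known activator of many glycolytic genes.

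Values are FPKM, fragments scaled to transcript length and to the fragments of the library, which allows levels of different genes to be compared. Differences are log2 fold changes on the scale of log2(FPKM + 1), which understates changes of low genes, with the standard error (SE) and the Benjamini-Hochberg adjusted p from limma over 10900 genes tested. A gene was called at an adjusted p under 0.05. FPKM summed to 211455 to 228391 per library, and read totals are unknown. Between 12.1% and 34.1% of the table's genes were listed at 0 in a library, with the highest share in young Ly library 1 and 19.3% to 34.1% in the young against 12.1% to 22.3% in the old libraries. The CD150 gene Slamf1 was higher in My-HSCs over both ages (2.62, adjusted p = 0.0081 from limma) and Cd34 lower (-1.87, adjusted p = 0.0081). Hlf and Mecom, genes of HSCs, were at 81.3 to 164.6 and at 35.2 to 81.9 FPKM in the 12 libraries, and Kit was not analysed here. The 12 stem cell and sort genes with a row, of 14 listed, summed to 493 to 613 FPKM in young Ly and 431 to 492 FPKM in old Ly libraries. In My-HSCs they summed to 563 to 580 FPKM in young and 530 to 589 FPKM in old libraries. In the mean age effect 7 of the 12 were above 0, and Ly6a was called higher. At an unadjusted p under 0.05 from limma 4 were lower, against 3.54% of all genes. Old Ly library 1 and old My library 1 stood apart by granulocyte and erythroid genes. The 4 granulocyte genes with a row (Prtn3, Mmp9, Itgam and Cxcr2, of 15 listed) summed to 329.9 and 314.6 FPKM there. They summed to 78.6 to 111 FPKM in the other old and 1.79 to 57.1 FPKM in the young libraries. The 8 erythroid genes with a row, of 13 listed, summed to 135 and 104 FPKM in those 2 libraries and to at most 33.7 FPKM elsewhere. In My-HSCs the sums of monocyte genes (18.1 to 46.2 FPKM in young, 10.9 to 40.5 in old) and B cell genes (2.93 to 26.1 and 7.55 to 23.7) overlapped. In Ly-HSCs the monocyte sums were 0.0473 to 19.7 FPKM in young and 12.7 to 47.8 FPKM in old libraries. The B cell sums there were 0.114 to 18.2 and 6.17 to 23.7 FPKM. All 4 monocyte genes tested were above 0 for age in Ly-HSCs (median 1.40), against 62.4% of all genes, and none was called. T and NK cell genes summed to 7.89 to 20.6 FPKM in old My and to at most 9.84 FPKM in the other groups. The 12 genes of cycling cells with a row, of 15 listed, summed to 173 to 255 FPKM in young Ly and 269 to 411 FPKM in old Ly libraries. In My-HSCs they summed to 186 to 268 FPKM in young and 199 to 250 FPKM in old libraries. All 12 were above 0 for age in Ly-HSCs (median 0.95), and 1 of 12 was higher in old My than in old Ly (median -0.66). None was called, and the part of cycling cells in the members' differences was not tested. In bulk RNA, fewer cells of a type and less RNA per cell cannot be told apart.

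One of the 47 genes was called. Ldha, which encodes the A subunit of lactate dehydrogenase, rose with age over both subsets, by a log2 fold change of 0.74 (SE 0.13, 1.67-fold, adjusted p = 0.0184 from limma). Over all genes tested, 0.844% were called in that mean age effect, with 0.752% higher and 0.0917% lower in old HSCs. No member was called for the age effect within Ly-HSCs or My-HSCs, for the subset effect at either age or over both, or for the difference between the age effects (the interaction), where 0.349%, 0.211%, 0.119%, 0.0275%, 0.413% and 0.0% of all genes were called. At an unadjusted p under 0.05 the same 6 comparisons held 6, 5, 5, 2, 3 and 1 members, and the mean age effect held 4. The matching shares of all genes were 13.3%, 7.21%, 13.8%, 4.03%, 11.2% and 5.65%, and 14.7% for the mean age effect. The members' shares, at 12.8%, 10.6%, 10.6%, 4.26%, 6.38%, 2.13% and 8.51%, were below the background except for the age effect in My-HSCs and the subset effect in old HSCs. Pcx, among the 4 members of the mean age effect, passed the filter on low values only through old libraries.

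The members' median effects were small in every comparison, but not always on the same side of 0 as those of all genes. Their median age effect was 0.09 in Ly-HSCs (30 of 47 above 0), against 0.18 over all genes (62.4% above 0). In My-HSCs it was 0.14 (33 of 47 above 0), against 0.07 over all genes (55.8% above 0). Over both subsets the median was 0.14 with 32 of 47 above 0, against 0.13 and 62.7%. The medians of the subset effects were -0.03 in young and -0.004 in old HSCs, with 22 of 47 members higher in My-HSCs at each age. Over all genes these medians were 0.13 and 0.02, and 59.2% and 52.0% were higher there. The median interaction was 0.13 with 28 of 47 members above 0, against -0.12 and 42.8% over all genes. These libraries resolve only sizeable changes, since the median SE over members was 0.35 for a comparison of 2 groups and 0.25 for an effect over both subsets or ages.

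Young Ly library 1 differed from the other libraries across the members. It held 14 of the 47 members at their lowest and 12 at their highest value of the 12 libraries, and 7 of them below 1 FPKM. No other library had more than 2 members below 1 FPKM. Correlations of log2(FPKM + 1) between the young Ly libraries over the 47 genes were 0.681 to 0.875, and between the old My libraries 0.940 to 0.974 (genes are not independent replicates). The median SD of a member among 3 libraries was 0.43 in young Ly, 0.31 in old Ly, 0.35 in young My and 0.23 in old My, on the log2 scale. Over all genes tested the order of the groups was the same, at 0.68, 0.35, 0.43 and 0.28.

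Lactate dehydrogenase interconverts pyruvate and lactate as a tetramer of A and B subunits. Ldha (chr7:46841475-46855627, GRCm38) stood at 40.0, 43.2 and 41.2 FPKM in young Ly and 59.5, 65.3 and 64.1 FPKM in old Ly libraries. In My-HSCs it stood at 38.2, 61.2 and 46.8 FPKM in young and at 82.4, 93.2 and 92.1 FPKM in old libraries. Every old library was above every young library of the same subset, and old My libraries were above all others, but young My library 2 at 61.2 FPKM was above old Ly library 1 at 59.5 FPKM. The age effect was 0.59 (SE 0.19, 1.51-fold, adjusted p = 0.202) in Ly-HSCs and 0.88 (SE 0.19, 1.84-fold, adjusted p = 0.103) in My-HSCs from limma, and neither was called alone. The difference between them was 0.29 (SE 0.26, adjusted p = 0.957 from limma). Among old HSCs, Ldha was 0.50 (SE 0.19, adjusted p = 0.999 from limma) higher in My-HSCs, with the 3 libraries of each subset not overlapping, and was not called. Old Ly library 1 and old My library 1, with the highest sums of granulocyte and erythroid genes, were the lowest of their groups for Ldha. The granulocyte sums of the other old libraries were also above those of all young libraries. The part of other blood cells in the Ldha difference was not tested. Without all 4 libraries numbered 1 the mean age effect was 0.69 (adjusted p = 0.0678 from limma), and with the share of genes listed at 0 as a covariate it was 0.48 (adjusted p = 0.423), so the call was lost in both. It was also lost without old Ly library 2 or 3 (adjusted p = 0.0614 and 0.0602 from limma) and without old My library 2 or 3 (adjusted p = 0.0756 in both), with an effect of 0.72 to 0.73. Same-numbered old Ly and old My libraries deviated together but were taken as independent. The SE and adjusted p of the mean age effect may therefore be too small.

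**Figure D1:**
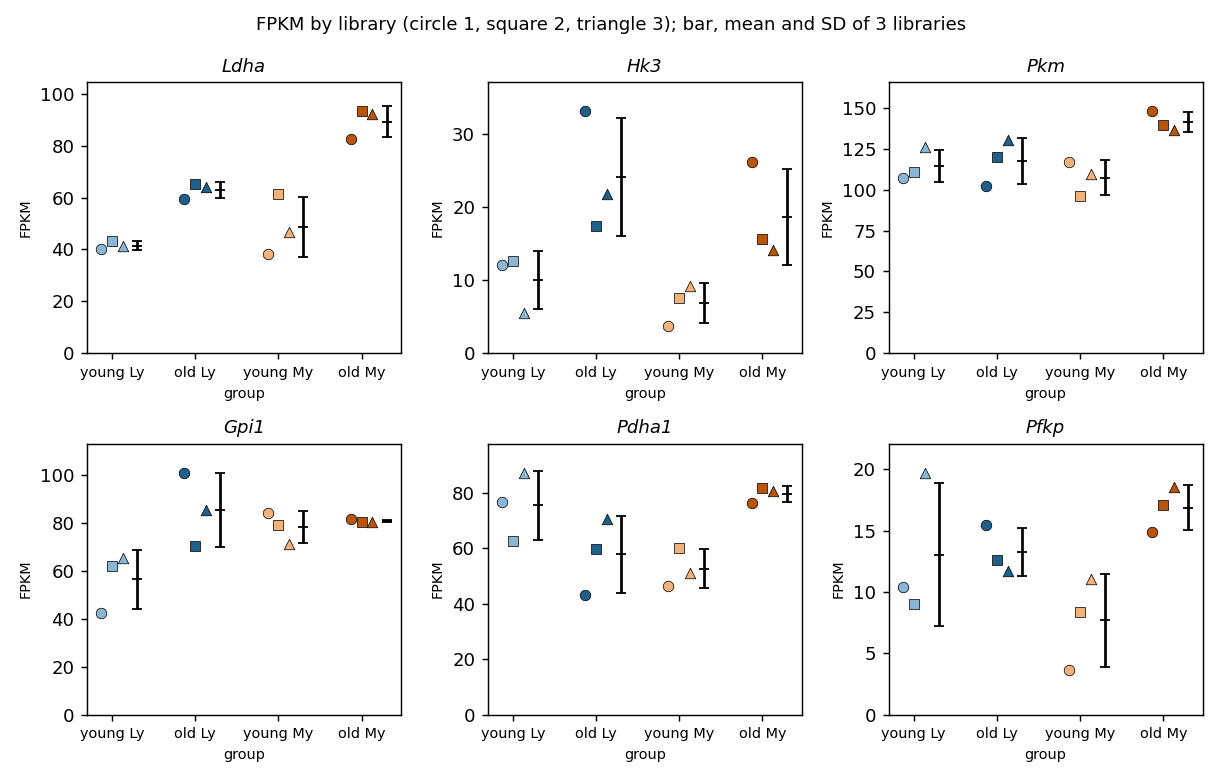
FPKM of 6 members by library. The horizontal axis gives the group and the vertical axis FPKM from 0; circles, squares and triangles are libraries 1, 2 and 3, and the bar beside them is the mean with the SD of 3 libraries. Ldha and Hk3 are higher in the old libraries of both subsets, and Pkm is highest in old My. Pfkp is higher in old My than in young My, Gpi1 is low in young Ly, and Pdha1 runs in opposite directions in the subsets.

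The mean age effect of Ldha was the members' only called result, so its start sites are shown. RefSeq gives 2 starts for Ldha on the forward strand (GRCm38.p6), and 250 bases before each are printed 5′ to 3′. Capitals mark ACGTG, the core of the element that HIF-1 binds, searched as ACGTG and its reverse complement CACGT.
Ldha, first start, chr7:46845554-46845803: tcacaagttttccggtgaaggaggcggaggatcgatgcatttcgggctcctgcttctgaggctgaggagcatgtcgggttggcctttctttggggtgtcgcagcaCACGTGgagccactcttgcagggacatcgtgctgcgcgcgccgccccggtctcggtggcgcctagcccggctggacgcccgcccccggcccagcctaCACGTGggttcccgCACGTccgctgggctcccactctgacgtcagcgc
Ldha, second start, chr7:46846832-46847081: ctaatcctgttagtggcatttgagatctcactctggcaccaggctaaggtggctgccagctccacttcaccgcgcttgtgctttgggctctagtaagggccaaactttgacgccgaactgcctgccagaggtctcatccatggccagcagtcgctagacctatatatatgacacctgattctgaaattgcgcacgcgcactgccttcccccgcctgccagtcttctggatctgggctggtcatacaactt
The first window held 5 matches on the 2 strands, at -145, -144, -48, -47 and -34 from the start, of which 4 lie in 2 palindromes CACGTG that count on both strands. CACGTG is also the E-box, so the same letters serve as the core of another known motif. The second window held no match, which says only that these letters are absent from it. A match in these windows is a description of sequence, and no binding was measured here.

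Ldhb, the subunit that predominates in heart muscle, did not follow Ldha. It stood at 57.1, 52.3 and 68.3 FPKM in young Ly, 47.5, 44.5 and 61.4 in old Ly, 67.0, 74.3 and 45.8 in young My and 48.2, 64.7 and 54.9 in old My libraries. Young and old libraries overlapped in both subsets, and the mean age effect was -0.17 (SE 0.16, adjusted p = 0.657 from limma). As a share of the summed FPKM of the 2 genes, Ldha took 41.2%, 45.2% and 37.6% in young Ly and 55.6%, 59.4% and 51.1% in old Ly libraries. In My-HSCs it took 36.3%, 45.2% and 50.5% in young and 63.1%, 59.0% and 62.6% in old libraries. All 6 old libraries were above all 6 young ones, with a gap from 50.5% in young My library 3 to 51.1% in old Ly library 3. This share is a ratio within a library, and it was chosen after the rise of Ldha was known and was not tested.

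**Figure D2:**
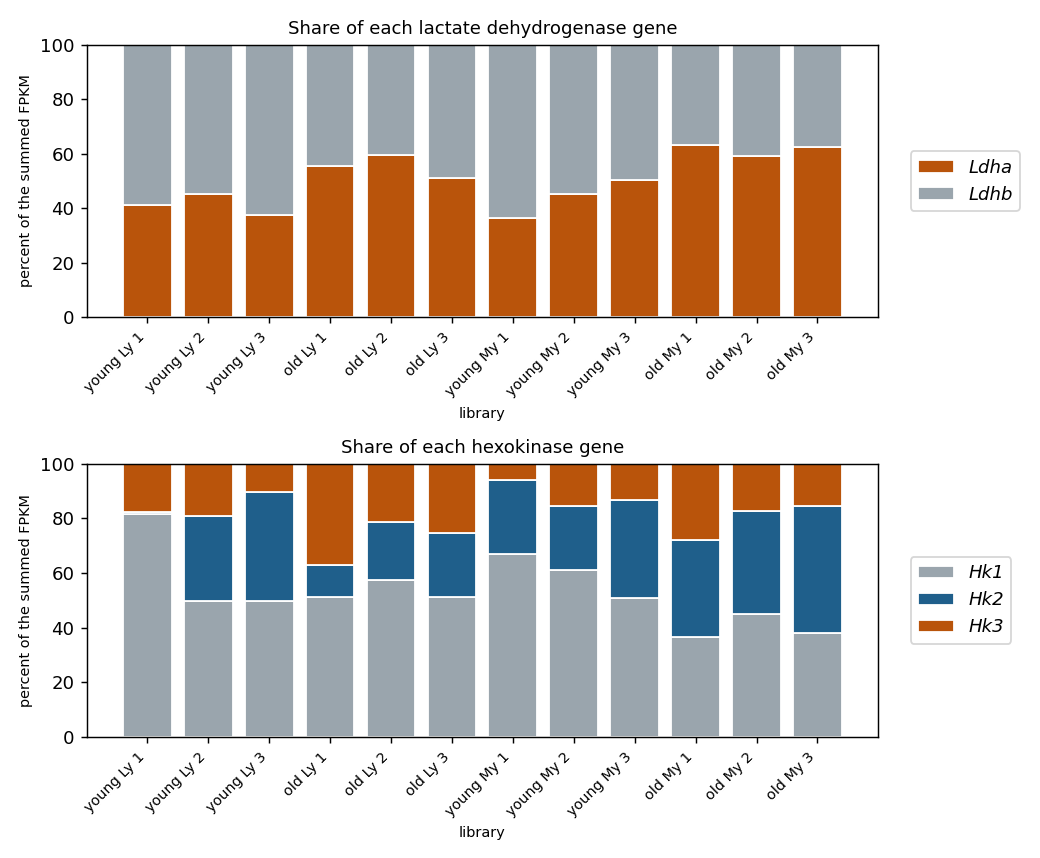
Shares of the lactate dehydrogenase genes (upper panel) and the hexokinase genes (lower panel). Each bar is a library and the vertical axis gives the percent of the summed FPKM of the genes named in the key. Ldha takes over 51% of its pair in every old library and under 51% in every young one, and Hk2 takes 0.675% of the hexokinases in young Ly library 1.

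Glucose enters the cell through facilitative transporters. Slc2a3 (GLUT3) led the pair measured, at 64.4% to 90.9% of their summed FPKM per library, and stood between 21.1 and 34.1 FPKM in all 12 libraries. Slc2a1 (GLUT1) ranged from 3.40 FPKM in young Ly library 1 to 16.2 FPKM in old Ly library 3, with young and old libraries overlapping in both subsets. Neither differed with age or subset beyond the spread between libraries.

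Hexokinases phosphorylate glucose and so trap it in the cell. Hk3 (chr13:55005985-55021385), the hexokinase of myeloid cells, had the second lowest p of the members for the mean age effect. It stood at 12.1, 12.6 and 5.47 FPKM in young Ly and 33.1, 17.4 and 21.8 FPKM in old Ly libraries. In My-HSCs it stood at 3.79, 7.57 and 9.19 FPKM in young and 26.1, 15.6 and 14.1 FPKM in old libraries. The lowest old library, at 14.1 FPKM, was above the highest young one, at 12.6 FPKM. Hk3 was the 1 member of 47 whose 6 old libraries were all above the 6 young ones, against 1.21% of all genes tested, and no member had them all below, against 0.367%. The mean age effect was 1.28 (SE 0.30, 2.42-fold, adjusted p = 0.0791 from limma), which misses the threshold. Within the subsets it was 1.21 (SE 0.43, adjusted p = 0.254) and 1.34 (SE 0.43, adjusted p = 0.43) from limma. The highest values were in old Ly library 1 and old My library 1, the libraries with the highest sums of granulocyte and erythroid genes. All 4 granulocyte genes had a positive mean age effect (median 2.38), and Itgam reached 160 and 124.5 FPKM in those 2 libraries against 14.2 FPKM or less in 5 of 6 young ones and 32.9 FPKM in young Ly library 3. Without the 4 libraries numbered 1, the Hk3 effect was 0.94 (adjusted p = 0.184 from limma). The part of other blood cells in the Hk3 difference was not tested.

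The mean age effect of Hk3 had the second lowest p of the members, so its start is shown too. The 250 bases before the RefSeq start of Hk3 are those of the reverse strand. They hold 1 match to ACGTG on either strand, at -156, in capitals.
Hk3, chr13:55021386-55021635: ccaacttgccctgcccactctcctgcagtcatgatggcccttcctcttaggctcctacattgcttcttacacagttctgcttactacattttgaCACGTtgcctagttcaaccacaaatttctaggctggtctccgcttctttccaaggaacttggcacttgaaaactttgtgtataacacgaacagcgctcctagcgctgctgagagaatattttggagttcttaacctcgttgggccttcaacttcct

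Hk1, the hexokinase of most tissues, was the leading hexokinase over the 12 libraries. It stood at 55.5, 32.7 and 26.3 FPKM in young Ly, 45.8, 46.6 and 44.1 in old Ly, 42.1, 30.2 and 35.2 in young My and 34.2, 40.6 and 34.4 in old My libraries. Old My libraries were all below old Ly libraries (-0.32, SE 0.26, adjusted p = 1.00 from limma), and the other comparisons overlapped. Hk2, the inducible hexokinase of muscle and of growing cells, was at 33.0, 33.7 and 42.5 FPKM in old My and at 0.460 to 24.8 FPKM in the other 9 libraries. The old My libraries were above all others, and the lowest value was that of young Ly library 1. The age effect of Hk2 in My-HSCs was 1.04 (SE 0.79, adjusted p = 0.914 from limma), with an SE widened by that library. In the share of hexokinase FPKM, Hk1 took 59.6% ± 8.16 (SD, n = 3) in young My and 39.9% ± 4.58 in old My, where Hk2 took 39.8% ± 6.03.

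Glucose-6-phosphate isomerase, encoded by Gpi1 (chr7:34201330-34230336), turns glucose 6-phosphate into fructose 6-phosphate and was the third most abundant member, at a mean of 75.3 FPKM. It stood at 42.4, 62.0 and 65.2 FPKM in young Ly and at 101, 70.2 and 85.2 FPKM in old Ly libraries. In My-HSCs it was at 84.3, 79.3 and 71.4 FPKM in young and 81.5, 80.5 and 80.6 FPKM in old libraries. The young Ly libraries were below all 9 others. The age effect was 0.60 in Ly-HSCs (SE 0.20, 1.51-fold, adjusted p = 0.223) and 0.05 in My-HSCs (SE 0.20, adjusted p = 0.995) from limma, and the subset effect in young HSCs was 0.49 (SE 0.20, adjusted p = 0.296). Without young Ly library 1, the lowest, the 2 effects that involve it were 0.41 and 0.29. None of these was called, nor was the interaction at -0.55 (SE 0.28, adjusted p = 0.874 from limma), which was -0.36 without that library.

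Phosphofructokinase commits the sugar to glycolysis, and 3 genes encode it. Pfkm, the muscle form, led over the 12 libraries, at 89.1, 36.3 and 48.3 FPKM in young Ly, 27.8, 39.8 and 41.6 in old Ly, 59.8, 37.4 and 28.8 in young My and 31.3, 32.9 and 29.9 in old My libraries. Library 1 was the highest in both young groups and the groups overlapped. Its mean age effect was -0.46 (SE 0.23, adjusted p = 0.387 from limma), -0.28 without young Ly library 1 and 0.01 with the share of genes at 0 as a covariate. Pfkl, the liver form, was level, between 20.1 and 39.1 FPKM, and its subset effect in old HSCs was -0.31 (SE 0.23, adjusted p = 1.00 from limma). Pfkp, the platelet form, stood at 10.4, 9.0 and 19.7 FPKM in young Ly, 15.4, 12.6 and 11.7 in old Ly, 3.60, 8.38 and 11.1 in young My and 14.9, 17.1 and 18.6 in old My libraries. Old My libraries were all above young My libraries while the Ly libraries overlapped. The age effect of Pfkp was 1.15 in My-HSCs (SE 0.41, 2.21-fold, adjusted p = 0.511) and 0.09 in Ly-HSCs (SE 0.41, adjusted p = 0.945) from limma, with an interaction of 1.06 (SE 0.58, adjusted p = 0.903). Pfkp took 10.6% ± 6.21 (SD, n = 3) of the family's FPKM in young My and 23.3% ± 3.54 in old My. Pfkfb3, which makes the allosteric activator of phosphofructokinase, ranged from 7.45 to 22.0 FPKM with all groups overlapping.

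Aldolase cleaves fructose bisphosphate. Aldoa, the second most abundant member at a mean of 91.4 FPKM, stood at 112, 86.6 and 129 FPKM in young Ly, 92.4, 73.2 and 88.2 in old Ly, 80.8, 66.7 and 95.6 in young My and 89.4, 82.7 and 101 in old My libraries. The groups overlapped, with a subset effect in young HSCs of -0.42 (SE 0.20, adjusted p = 0.361 from limma). Aldoc, the brain form, held 2.03% to 15.4% of aldolase FPKM. It stood at 20.3, 7.97 and 4.83 FPKM in young Ly, 4.41, 4.51 and 4.39 in old Ly, 4.70, 3.79 and 8.46 in young My and 1.85, 4.90 and 4.43 in old My libraries. Old Ly libraries were all below young Ly libraries, though the nearest pair was at 4.51 and 4.83 FPKM, and young Ly library 1 was far above the rest. Its age effect there was -0.93 (SE 0.54, adjusted p = 0.466 from limma), and -0.41 without that library. Tpi1, triose phosphate isomerase, ranged from 20.6 to 60.5 FPKM with overlapping groups and a mean subset effect of -0.35 (SE 0.22, adjusted p = 0.602 from limma), or -0.21 without young Ly library 1.

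In the second stage of glycolysis, which yields ATP, Pkm led all members. Pkm (chr9:59656368-59679375), pyruvate kinase of muscle and of most proliferating cells, had a mean of 120.2 FPKM. It stood at 107, 111 and 126 FPKM in young Ly, 102, 119.7 and 131 in old Ly, 117, 95.9 and 109 in young My and 148, 139.6 and 136 in old My libraries. All 3 old My libraries were above the other 9. The age effect in My-HSCs was 0.40 (SE 0.15, 1.32-fold, adjusted p = 0.545) and the subset effect in old HSCs 0.27 (SE 0.15, adjusted p = 1.00) from limma, and neither was called. The latter was 0.17 without old Ly library 1. Its splice forms are summed in this table and were not separated.

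Gapdh, Pgk1 and Eno1, which carry out steps between aldolase and pyruvate kinase, overlapped in every comparison. Gapdh ranged from 24.6 to 45.5 FPKM, Pgk1 from 37.0 to 79.4 FPKM and Eno1 from 9.02 FPKM in young Ly library 1 to 66.0 FPKM in old Ly library 1. The GENCODE M21 annotation names processed pseudogenes of Ldha, Gapdh, Pgk1 and Aldoa. The counting rule for reads that match several places is not given, so the levels of these 4 genes are uncertain.

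Entry of pyruvate into the mitochondrion passes through a carrier of 2 subunits. Mpc1 stood at 0.121, 7.31 and 9.88 FPKM in young Ly, 6.47, 13.5 and 14.5 in old Ly, 5.73, 25.0 and 16.5 in young My and 28.1, 17.3 and 21.7 in old My libraries. Old My libraries were all above old Ly libraries, and the mean subset effect was 1.29 (SE 0.53, adjusted p = 0.373 from limma), or 0.78 without young Ly library 1. Its partner Mpc2 was the second least abundant member, from 0.982 to 4.17 FPKM, with young My libraries at 3.99 to 4.17 FPKM above young Ly libraries at 0.982 to 3.45 FPKM. The subset effect of Mpc2 in young HSCs was 0.86 (SE 0.48, adjusted p = 0.442 from limma). Pcx, pyruvate carboxylase, which refills the citrate cycle from pyruvate, was the least abundant member. It was listed at 0.437, 0 and 0 FPKM in young Ly, 0, 1.26 and 1.57 in old Ly, 0, 0.152 and 0.651 in young My and 0.978, 1.86 and 0.732 in old My libraries. All 3 old My libraries were above the 3 young My ones, at levels where few fragments decide a value. Pcx reached 1 FPKM only in old Ly libraries 2 and 3 and old My library 2, so it passed the filter only through old libraries. Its age effects and separations by age are therefore not independent of the filter. The mean age effect was 0.73 (SE 0.33, adjusted p = 0.327 from limma), and it was -0.05 after quantile normalization.

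Pyruvate dehydrogenase joins an E1 of alpha and beta subunits (Pdha1, Pdhb) to E2 (Dlat) and E3 (Dld). Pdha1 (chrX:160122209-160138413) stood at 76.8, 62.5 and 87.2 FPKM in young Ly and 43.1, 59.6 and 70.7 FPKM in old Ly libraries. In My-HSCs the order was opposite, with 46.5, 60.2 and 51.1 FPKM in young and 76.2, 81.7 and 80.7 FPKM in old libraries. Young My libraries were all below young Ly libraries and old My libraries all above old Ly libraries. The age effect was -0.40 (SE 0.21, adjusted p = 0.432) in Ly-HSCs and 0.59 (SE 0.21, adjusted p = 0.504) in My-HSCs from limma, and the former was -0.20 without old Ly library 1. Their difference was 0.99 (SE 0.29), with an unadjusted p from limma of 0.00494, the only member with an interaction under 0.05, and an adjusted p of 0.748, so it was not called. The partner subunit Pdhb did not share this order. Pdhb stood at 25.4, 40.2 and 36.9 FPKM in young Ly, 72.6, 44.8 and 48.2 in old Ly, 32.0, 65.1 and 39.7 in young My and 39.7, 45.3 and 49.0 in old My libraries. Old Ly libraries were all above young Ly libraries (0.67, SE 0.28, adjusted p = 0.341 from limma), with old Ly library 1 the highest and young Ly library 1 the lowest. The effect of Pdhb was 0.46 without old Ly library 1 and 0.48 without young Ly library 1. Dlat was higher in old My (9.85 to 15.6 FPKM) than in old Ly libraries (7.00 to 9.54 FPKM) without overlap, and Dld ranged from 29.4 to 109 FPKM with overlapping groups.

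Of the kinases that silence pyruvate dehydrogenase, Pdk3 led, with 57.4% to 69.9% of the FPKM of the 3 genes in every library. Pdk3 stood at 40.3, 42.6 and 45.9 FPKM in young Ly, 31.4, 30.5 and 40.6 in old Ly, 48.6, 46.9 and 39.8 in young My and 26.9, 47.1 and 40.8 in old My libraries. Young and old libraries overlapped, and the mean age effect was -0.30 (SE 0.16, adjusted p = 0.43 from limma), or -0.18 without old My library 1. Pdk1, a known HIF-1 target, ranged from 6.29 FPKM in old My library 1 to 14.6 FPKM, with an age effect of -0.29 (SE 0.35, adjusted p = 0.957 from limma) in My-HSCs. Without old My library 1 that effect was 0.02. Pdk2 was lower in young My (8.35 to 9.49 FPKM) than in young Ly libraries (9.82 to 14.3 FPKM) and overlapped elsewhere.

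The citrate cycle held 15 members, and none was called. Their median age effect was 0.001 in Ly-HSCs and 0.05 in My-HSCs, and 10 of 15 were above 0 over both subsets with a median of 0.10. Cs, citrate synthase, which admits acetyl-CoA to the cycle, ranged from 27.7 to 62.6 FPKM and overlapped in every comparison. Aco1, the cytosolic aconitase that also serves as an iron sensor, varied most widely within young Ly, at 1.39, 20.5 and 36.8 FPKM, against 3.69 to 12.3 FPKM elsewhere.

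Isocitrate dehydrogenases oxidise isocitrate. Idh2, the mitochondrial NADP form, stood at 89.8, 43.1 and 15.9 FPKM in young Ly, 62.8, 58.6 and 69.6 in old Ly, 74.3, 42.2 and 54.3 in young My and 36.5, 51.2 and 47.0 in old My libraries. Old My libraries were all below old Ly libraries (-0.51, SE 0.45, adjusted p = 1.00 from limma), and young Ly spanned both extremes. Idh1, the cytosolic NADP form, stood at 4.79, 9.12 and 6.98 FPKM in young Ly, 1.01, 10.7 and 7.99 in old Ly, 11.9, 11.7 and 9.61 in young My and 9.19, 15.1 and 10.7 in old My libraries. Young My libraries were all above young Ly libraries, and the mean subset effect was 0.85 (SE 0.41, adjusted p = 0.461 from limma), or 0.45 without old Ly library 1, the lowest. The share of Idh2 in the pair was 90.9% ± 7.00 (SD, n = 3) in old Ly and 79.5% ± 2.13 in old My, without overlap. The NAD enzyme of the cycle is built from Idh3a, Idh3b and Idh3g, and Idh3b held 43.2% to 51.2% of their FPKM and Idh3g 31.0% to 51.2%. Idh3g stood at 85.9, 54.8 and 66.5 FPKM in young Ly, 54.7, 37.6 and 55.9 in old Ly, 70.8, 60.2 and 34.3 in young My and 64.2, 47.2 and 33.7 in old My libraries. The groups overlapped, with a mean age effect of -0.32 (SE 0.22, adjusted p = 0.537 from limma) that was 0.42 with the share of genes at 0 as a covariate.

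Oxoglutarate dehydrogenase, encoded by Ogdh, Dlst and Dld, and succinyl-CoA ligase carry the next steps. Ogdh ranged from 17.8 to 43.2 FPKM and had age effects of 0.00 and -0.01 in the 2 subsets, each with an SE of 0.29. Dlst stood at 59.4, 43.7 and 54.7 FPKM in young Ly, 34.4, 54.0 and 42.3 in old Ly, 28.7, 46.5 and 39.9 in young My and 55.0, 54.6 and 41.3 in old My libraries. It overlapped throughout, with an interaction of 0.68 (SE 0.34, adjusted p = 0.874 from limma), the next in p after that of Pdha1. Suclg1, the alpha subunit shared by both ligases, was at 11.4 to 14.0 FPKM in young Ly and at 16.1 to 22.4 FPKM in old Ly libraries, without overlap. Its age effect in Ly-HSCs was 0.57 (SE 0.29, adjusted p = 0.413 from limma). Sucla2, the beta subunit of the ATP-forming ligase, stood at 0.567, 9.99 and 19.0 FPKM in young Ly, 26.2, 15.0 and 18.5 in old Ly, 16.4, 19.4 and 15.4 in young My and 13.9, 16.8 and 18.1 in old My libraries. Young Ly library 1 was far below all others, which overlapped. The subset effect of Sucla2 in young HSCs was 1.36 (SE 0.68, adjusted p = 0.404 from limma), and 0.28 without that library. Suclg2, the beta subunit of the GTP-forming ligase, was level at 21.2 to 34.8 FPKM.

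Fh1, fumarase, ranged from 6.06 to 20.0 FPKM with overlapping groups. Of the malate dehydrogenases, Mdh1, the cytosolic form, was higher in old My (40.8 to 51.4 FPKM) than in young My libraries (28.0 to 32.9 FPKM), without overlap and with an SE of 0.43 around an effect of 0.57 (adjusted p = 0.914 from limma). Mdh2, the mitochondrial form, stood at 95.3, 46.7 and 28.3 FPKM in young Ly, 51.8, 40.0 and 33.3 in old Ly, 15.8, 36.6 and 35.4 in young My and 37.7, 39.4 and 38.9 in old My libraries. Old My libraries were just above young My libraries, and the widest values were those of young Ly library 1 and young My library 1. Its subset effect in young HSCs was -0.85 (SE 0.40, adjusted p = 0.369 from limma), or -0.39 without young Ly library 1, and without the 4 libraries numbered 1 its mean subset effect went from -0.47 to 0.04.

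Hif1a, the regulated subunit of HIF-1, stood at 20.8, 15.0 and 18.7 FPKM in young Ly, 33.8, 22.9 and 25.7 in old Ly, 18.6, 27.4 and 20.0 in young My and 19.9, 21.8 and 24.3 in old My libraries. Old Ly libraries were all above young Ly libraries (0.56, SE 0.26, adjusted p = 0.368 from limma), and the My libraries overlapped (0.02, SE 0.26, adjusted p = 0.998). HIF-1 is controlled mainly through the stability of this protein, which RNA does not show. Vhl, the recognition subunit of the ligase that removes it, was listed at 0, 4.75 and 1.33 FPKM in young Ly, 5.77, 2.52 and 5.16 in old Ly, 7.09, 4.51 and 5.33 in young My and 8.75, 7.80 and 8.54 in old My libraries. Old My libraries were above all 9 others, and the mean subset effect was 1.15 (SE 0.42, adjusted p = 0.293 from limma), or 0.83 without young Ly library 1. Egln1, the main prolyl hydroxylase of HIF-1, ranged from 0.303 FPKM in young My library 2 to 20.9 FPKM in young Ly library 3, and its groups overlapped.

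In all, 6 members had every old Ly library above every young Ly library, namely Ldha, Hk3, Gpi1, Pdhb, Suclg1 and Hif1a, and only Aldoc had every old one below. That is 12.8% and 2.13% of the members, against 11.5% and 4.5% of all genes tested. In My-HSCs, 10 members had every old library above every young one, namely Hk2, Hk3, Pfkp, Pkm, Ldha, Pdha1, Pcx, Mdh1, Mdh2 and Vhl, and none had every old one below. That is 21.3% and 0.0%, against 11.3% and 7.8% of all genes. Pcx, on the My-HSC list, passed the filter on low values only through old libraries. Ldha and Hk3 were on both lists. Among young HSCs, Gpi1, Mpc2 and Idh1 were higher and Pdk2 and Pdha1 lower in all My than in all Ly libraries, at backgrounds of 8.97% and 4.41%. Among old HSCs, 7 were higher in My-HSCs (Hk2, Pkm, Ldha, Pdha1, Dlat, Mpc1 and Vhl) and 2 lower (Hk1 and Idh2), at backgrounds of 9.19% and 7.53%. The age comparisons in My-HSCs and the subset comparisons in old HSCs share the old My libraries, in which Ldha, Hk2, Pkm and Vhl were each higher than in the other 9.

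**Figure D3:**
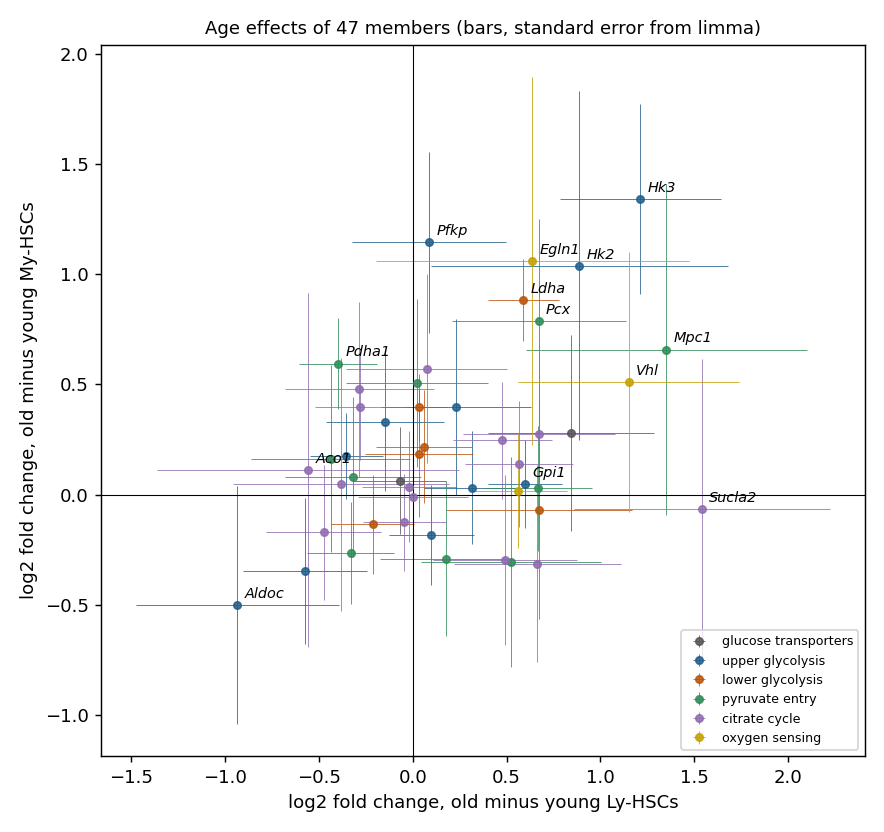
Age effects of the 47 members. The horizontal axis gives the log2 fold change between old and young Ly-HSCs, the vertical axis that between old and young My-HSCs, with SE bars from limma and colours by role. Ldha and Hk3 lie up and to the right with short or moderate bars, and Pdha1 lies at the upper left. The widest bar is that of Egln1.

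Summed over the 19 genes of glycolysis and glucose transport, FPKM was 686 to 737 in young My and 803 to 860 in old My libraries, without overlap. In Ly-HSCs the sums overlapped, at 705 to 794 in young and 723 to 835 in old libraries. The sums over all 10900 genes tested did not overlap in My-HSCs either, at 211010 to 216356 FPKM in young and 217245 to 221393 FPKM in old libraries. Upper glycolysis gave 313 to 368 FPKM in young My and 380 to 403 FPKM in old My libraries, without overlap. Lower glycolysis gave 308 to 344 FPKM in young My and 388 to 425 FPKM in old My libraries, a separation in which Pkm and Ldha were the members that did not overlap. The citrate cycle sums overlapped in both subsets, at 425 to 502 FPKM in young My and 442 to 505 FPKM in old My libraries. A sum is led by its most abundant genes, and these were not tested.

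Other genes of the same pathways gave no call in any of the 3 age effects. Over all genes tested, 62.7% were above 0 in the mean age effect, with 62.4% in Ly-HSCs and 55.8% in My-HSCs. Of 25 further glycolysis genes (other transporters, isoenzymes and lactate carriers), 17 could be tested and 12 were above 0 in the mean age effect, with a median of 0.19. In Ly-HSCs 13 were above 0 and in My-HSCs 9. Of 26 further genes of pyruvate use and the citrate cycle, 22 could be tested and 18 were above 0, with a median of 0.45. Of these genes, 20 were above 0 in Ly-HSCs and 15 in My-HSCs. Among them Me1, the cytosolic malic enzyme, was listed at 0 in all 3 young Ly libraries and at 1.21 to 2.29 FPKM in old Ly libraries, with an adjusted p of 0.127 from limma for the mean age effect of 1.00 (SE 0.28). The pentose phosphate pathway, which branches off at glucose 6-phosphate, had 7 of 8 tested genes above 0 and a median of 0.60. That pathway had 7 genes above 0 in Ly-HSCs (median 0.80) and 4 in My-HSCs (median 0.34). Its highest values for G6pdx (84.9 FPKM) and Taldo1 (121 FPKM) were in old Ly library 1. Of 9 further oxygen sensing genes tested, 6 were above 0 with a median of 0.19. Hif3a, an inhibitory relative of HIF-1 alpha, was at 3.11 to 8.14 FPKM in the old and 9.24 to 19.5 FPKM in the young libraries, with a mean age effect of -1.32 (SE 0.31, adjusted p = 0.0772 from limma). Of 14 HIF-1 target genes outside glycolysis that could be tested, 11 were above 0 with a median of 0.11, beside 0.13 over all genes. Me1, G6pdx, Taldo1 and Hif3a were singled out after their values were seen.

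RefSeq promoters, from 250 bases before to 50 after each start, were found for 45 of the 47 members, with 67 starts. ACGTG on either strand was present in 43.3% of the members' promoters and in 23.8% of the 13895 promoters of the table's genes. The longer CACGTG, which contains it, was present in 13.4% and 9.15%. The 21 members with ACGTG had a median mean age effect of 0.21, with 14 above 0, and the 24 without it 0.10, with 17 above 0. Over all genes tested the medians were 0.11 with and 0.13 without these letters. These are descriptions of sequence and expression side by side.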

How the data were processed

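RNA from sorted HSCs was read as paired ends of 150 bases on a HiSeq3000 after a KAPA stranded mRNA library, per the labels' protocols. The authors deposited 1 table of FPKM per gene and library. Per the submitters' processing notes, STAR, bcl2fastq 2.17, DESeq2 and the GRCm38 (mm10) build were used, without a role for each. The annotation and the counting of reads stand as not given in the sources used here. Values were taken as log2(FPKM + 1), and genes at 1 FPKM or more in at least 3 of 12 libraries were kept (10900). One limma 3.58.1 model (R 4.3.3) with a mean per group, 8 residual degrees of freedom and a trended prior gave 7 contrasts, each adjusted over all genes tested, and was checked on simulated data. P-values measure the spread between libraries within a group, with all libraries taken as independent. The members and the lists of related genes and markers were chosen with earlier results of these data known. Named genes were, in each contrast and direction, the called members or else the 4 of lowest p, with the leading isoenzymes and the 3 highest and 3 lowest levels. A sum or share of FPKM was computed within a library. Gene positions come from GENCODE M21 and promoters from RefSeq, both on GRCm38. Same-numbered old Ly and old My libraries deviated together (correlations 0.256, 0.233 and 0.210 over genes). Same-numbered libraries of other group pairs gave -0.0386 to 0.0482. The sample titles give only the numbers, so a pairing of the old libraries is inferred from these correlations and not stated by the titles. The main model did not use such a pairing. The SE and p-values of the mean age effect may therefore be too small. Alternatives are listed with their effects in the closing section.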

Additional observations from a re-analysis of the deposited data

Results flagged for a closer look

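Pdha1, the alpha subunit of pyruvate dehydrogenase E1, differed between the subsets in opposite directions at the 2 ages. In young HSCs every My library was below every Ly library (-0.51, SE 0.21, adjusted p = 0.298 from limma), and in old HSCs every My library was above every Ly library (0.48, SE 0.21, adjusted p = 1.00 from limma). Without old Ly library 1 the effect in old HSCs was 0.29. The difference between the effects was tested as the interaction, at 0.99 (SE 0.29, unadjusted p = 0.00494 and adjusted p = 0.748 from limma). Over the alternatives its adjusted p was 0.222 to 1.00 and its value 0.73 to 1.15, always positive.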

How the results depend on the processing

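The rise of Ldha over both subsets kept its direction under every alternative (0.48 to 0.82) and its call under all but 2 of those that left out no single library. The fit with the replicate block gave Ldha an adjusted p of 0.0267 from limma, and the block in the old libraries only, an alternative chosen after seeing the data, 0.0417. Each block takes the spread shared by its libraries out of the residual, while age is compared between mice. The kept call therefore cannot decide whether Ldha holds once a pairing of the old libraries is counted. Neither block changed a member's call, but the block moved the genes called from 38 to 15, 23 to 9, 13 to 4 and 3 to 1 for age in Ly-HSCs, age in My-HSCs, subset in young and subset in old HSCs. The old-only block gave 7, 12, 0 and 1, and moved the calls for the mean subset effect from 45 to 18 and for the mean age effect from 92 to 102. Members called in the mean age effect went from 1 to 0 with the share of genes at 0 as a covariate and without the 4 libraries numbered 1, and 1 member, Ldha, was called in My-HSCs with 1 weight per group (adjusted p = 0.0227 from limma). Leaving out 1 library gave 0 to 1 members for the mean age effect. The cause of these changes was not tested.

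For all genes, the age effect in Ly-HSCs held 17 calls at a mean FPKM of at least 5, 14 with quantile normalization, 24 with median-of-ratios size factors, 9 with group weights, 0 with the covariate, 11 without the libraries numbered 1 and 0 in its 6 libraries alone. In My-HSCs the calls were 1 with a pseudocount of 0.1, 56 without a filter, 7 at a mean of 5, 71 with group weights, 1 with the covariate, 4 without the libraries numbered 1 and 36 in the 6 libraries alone. In the mean age effect, 92 calls became 60 at a mean of 5, 9 with the covariate and 39 without the libraries numbered 1. The subset effect in young HSCs held 22 with a pseudocount of 0.1, 2 without a filter, 0 with group weights, 1 with the covariate, 32 without the libraries numbered 1 and 0 alone. In old HSCs it held 1 with a pseudocount of 0.1, 29 without a filter, 8 with quantile normalization, 69 with group weights, 1 with the covariate, 0 without the libraries numbered 1 and 12 alone. The mean subset effect held 69 without a filter and 16 with the covariate, and the interaction went from 0 (616 at an unadjusted p under 0.05 from limma) to 6 without a filter. Without 1 library, the calls ran from 7 (without old Ly library 2) to 223 (young Ly library 2) for age in Ly-HSCs, 0 (old My library 2) to 36 (young Ly library 1) in My-HSCs, and 42 (old My library 2) to 197 (young Ly library 2) for the mean age effect. They ran from 0 (old Ly library 3) to 299 (young Ly library 2) for subset in young, 0 (old Ly library 1) to 6 (young Ly library 3) in old, and 14 (old My library 3) to 111 (young Ly library 2) over both. Quantile normalization lowered the median of all genes by 0.19, 0.13 and 0.15 for age in Ly-HSCs, subset in young HSCs and the mean age effect, and in the last 62 of 84 calls were higher, against 82 of 92.

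The members' median effect without 1 library ran from 0.087 to 0.21 for age in Ly-HSCs, 0.052 to 0.18 in My-HSCs, 0.10 to 0.25 for the mean age effect, -0.028 to 0.092 for subset in young HSCs, -0.097 to 0.060 in old, -0.019 to 0.049 over both and -0.027 to 0.20 for the interaction. The subset median in old HSCs was 0.10 without the libraries numbered 1. Uncalled effects of single members changed sign in 9 cases. With the covariate, Pfkm went to 0.013 in Ly-HSCs, 0.016 in My-HSCs and 0.014 over both, and Idh3g to 0.42 over both. Without the libraries numbered 1, Pdk3 went to 0.020 for age in My-HSCs, and Mdh2 and Tpi1 to 0.041 and 0.027 for subset. Quantile normalization took Pcx to -0.048 for age, and leaving out 1 library took Pdk1 in My-HSCs from -0.47 to 0.020.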
